A study of Mus musculus with 2 samples.

Results

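Myh7, Myh6 and Myh7b encode the slow-type heavy chains of striated muscle myosin, and their transcripts were followed cell by cell in myofibers of a fast foot muscle of the mouse, the flexor digitorum brevis (FDB). These are 3 of the 35163 genes in the table of counts, and they were read in 171 of 763 cells, which were selected on measured values, namely more than 5000 genes detected and less than 20% of counts from mitochondrial genes. By the deposited description all cells came from 1 untreated C57BL/6J mouse more than 3 months of age, and the libraries carried 8 library indices (n705 to n712) over 2 sequencing lanes. The study's methods name male mice, of this strain and of DBA2, without saying which gave these cells. Each well held a sorted myofiber (670 wells) or a fragment from cut pieces of muscle (93 wells, 3 of them among the 171 kept), all called cells here, and the RNA molecules of each were counted by unique molecular identifiers (UMIs), so that each count stands for 1 captured molecule. Because there was 1 mouse, cells are not replicates: no p-value is given, and all 95% limits cover counting error only. The genes were chosen by their measured pattern in these same cells, so their levels are given as a description.

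Muscle contracts when myosin heavy chains in the thick filament pull on actin, and the heavy chain sets how fast the fiber shortens. Myh7 encodes the beta heavy chain of slow skeletal fibers and of the heart ventricle, Myh6 the alpha heavy chain that dominates the adult mouse heart, and Myh7b an ancient relative found at low levels in slow muscle and heart. Fast fibers of the mouse carry Myh2 (type 2A), Myh1 (type 2X) or Myh4 (type 2B) instead. Each of the slow-type genes also hosts a microRNA, and those of Myh7 and Myh7b are known to act together in keeping slow fibers slow.

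In GRCm38, Myh7 (chr14:54970684-54994626) and Myh6 (chr14:54941921-54966927) lie in a row on the minus strand, with 3756 bases between them, and Myh7b (chr2:155611212-155634307) lies on the plus strand. The hosted microRNAs lie on the same strand as their hosts, in intron 31 of Myh7, intron 29 of Myh6 and intron 19 of Myh7b. They are shown because they tie the 3 genes into 1 family beyond the proteins. The mature sequences are from RefSeq (GRCm38.p6), with the seed, bases 2 to 8, in capitals.
mmu-miR-208b-3p, in Myh7 (chr14:54975710-54975731): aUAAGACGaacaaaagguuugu
mmu-miR-208a-3p, in Myh6 (chr14:54949072-54949093): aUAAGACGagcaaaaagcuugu
mmu-miR-499-5p, in Myh7b (chr2:155622893-155622913): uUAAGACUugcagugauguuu
The seeds of miR-208b and miR-208a were identical over all 7 bases, and the seed of miR-499 shared 6 of its 7 bases with them. The microRNAs have no rows of their own in the count table, so their levels were not analysed here.

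A stretch before the RefSeq start of each gene is shown because the levels of Myh7 and Myh6 ran together over the cells and those of Myh7b did so less. Each is 220 bases of RefSeq sequence (GRCm38.p6), from 250 to 31 bases before the start listed in RefSeq, written in the direction of the gene. The intervals given above are those of GENCODE, and the starts differ in part. For Myh7 both are the same, for Myh7b the RefSeq start lies 31 bases inside the GENCODE gene, and for Myh6 it lies 320 bases inside, so that the whole Myh6 stretch lies within the GENCODE gene. Capitals mark letters that match, on either strand, the E-box CANNTG, the M-CAT motif CATTCC or the GATA motif AGATAA. No capitals overlap between motifs.
Myh7, minus strand (chr14:54994657-54994876): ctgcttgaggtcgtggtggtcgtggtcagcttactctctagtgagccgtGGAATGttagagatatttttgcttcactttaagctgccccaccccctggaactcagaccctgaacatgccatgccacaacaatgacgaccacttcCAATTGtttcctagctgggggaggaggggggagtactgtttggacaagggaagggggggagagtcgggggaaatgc
Myh6, minus strand (chr14:54966638-54966857): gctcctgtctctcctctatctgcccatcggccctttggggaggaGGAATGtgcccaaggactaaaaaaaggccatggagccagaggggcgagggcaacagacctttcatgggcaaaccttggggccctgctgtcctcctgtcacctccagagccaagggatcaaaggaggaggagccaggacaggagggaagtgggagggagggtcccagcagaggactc
Myh7b, plus strand (chr2:155610993-155611212): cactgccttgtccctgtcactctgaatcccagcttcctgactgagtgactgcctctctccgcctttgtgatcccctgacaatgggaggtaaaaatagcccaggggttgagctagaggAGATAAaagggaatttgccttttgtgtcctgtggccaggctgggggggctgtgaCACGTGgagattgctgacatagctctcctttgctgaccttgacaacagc
The M-CAT letters stood in the Myh7 and Myh6 stretches and not in that of Myh7b, and 11.4% of 32851 stretches of the same length in RefSeq held them. The E-box letters stood in the Myh7 and Myh7b stretches and in 62.1% of all stretches, and the GATA letters stood in that of Myh7b and in 9.04% of all. Letters of the MEF2 motif were in none of the 3 stretches and in 2.60% of all. A match is a description of the letters and not a binding site, and the part of these letters in the levels was not tested.

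Myh7 was the most abundant of the slow-type myosins in the FDB, Myh6 was the second and Myh7b the third, and most of the Myh7 and Myh6 came from a handful of cells. Over the 171 cells, with 51923865 counts in all, Myh7 had 15464 counts, or 298 CPM (counts scaled to a total of 1000000, 95% limits 293 to 303). Myh6 had 2697 counts, or 51.9 CPM (limits 50 to 53.9), and Myh7b had 801 counts, or 15.4 CPM (limits 14.4 to 16.5). The longest coding transcripts of the 3 genes are of nearly equal length, at 6230, 6113 and 6163 bases. Per kilobase of transcript the levels were 47.8 CPM for Myh7, 8.50 for Myh6 and 2.5 for Myh7b, so the order was the same and no neighbours in it overlapped within their counting limits. The order was another in some subsets of cells, which are given with the library indices.

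Myh7 and Myh6 share sequence. Of the 66-base stretches of the Myh7 transcripts, 16.2% also occur word for word in Myh6, and in the last 600 bases, the share was 45.4%. The length of 66 bases is that of the cDNA read. Myh7b shared no such stretch with Myh7, Myh6 or any of Myh1, Myh2, Myh3, Myh4, Myh8 and Myh13. Counts of Myh7 and Myh6 are therefore uncertain between these genes, and the part of misplaced reads in them was not tested.

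A typical FDB cell held very little of any slow-type myosin. The median cell had 65.1 CPM of Myh7, with quartiles of 14.2 and 197 CPM, while the highest cell had 9093 CPM. For Myh6 the median was 11.1 CPM and the highest cell had 1565 CPM. For Myh7b the median was 8.47 CPM and the highest cell had 856 CPM. In each of the 3 genes a single cell carried about the same part of all counts, at 24.9% for Myh7, 27.1% for Myh6 and 27.5% for Myh7b. The 10 cells with most counts carried 74.2% of Myh7, 77.2% of Myh6 and 46.7% of Myh7b.

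At least 1 count of Myh7 was found in 155 of 171 cells (90.6%, exact Clopper-Pearson 95% limits 85.3 to 94.6), of Myh6 in 133 (77.8%, limits 70.8 to 83.8) and of Myh7b in 130 (76.0%, limits 68.9 to 82.2). All 3 genes were found in 108 cells (63.2%) and none of them in 9 cells. Of the cells with Myh6, 130 also had Myh7 and 3 did not. These shares went with depth, as the cells without any of the 3 genes had a median of 42291 counts and those with all 3 had 285295. They went with the library index as well. The 16 cells without Myh7, among them the 9 without any of the 3 genes, were all on indices n706, n710 and n712, which held 65 of the 171 cells at a median depth of 246064 counts, and Myh7 was found in all 106 cells on the other 5 indices, at 237815 counts. After each cell was thinned to 28827 counts, the total of the shallowest cell, Myh7 was found in 70.8% of cells, Myh6 in 29.8% and Myh7b in 29.8%, and all 3 together in 18 cells (10.5%). No cell type that should lack these genes was sorted, so free RNA in the wells could not be measured against such cells.

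The share of Myh7 among the summed counts of 5 heavy chains (Myh1, Myh2, Myh4, Myh7, Myh8) ran from 0% to 77.3% with a median of 0.422%, and 75% of the cells lay below 1.3%. Cells with a share of at least 10%, of which there were 8, are called Myh7-rich here and numbered by that share. The last cell inside this limit had 11.2% and the first outside had 8.90%, so the limit cuts a continuous tail. Cell 1 had 77.3% Myh7 (95% limits 74.8 to 79.6), from 915 counts of 1184. Cell 2 had 76.1% (limits 74.9 to 77.3), from 3843 counts of 5051. In these cells Myh7 dominated, and Myh1 and Myh2 shared the remainder almost evenly. Cell 3 had 43.2% Myh7 and 45.3% Myh2, and was thus close to an even hybrid. Cell 4 had 24.1% Myh7 and 54.5% Myh2. Cells 5 to 8 had between 16.1% and 11.2% Myh7 and between 67.5% and 78.4% Myh2. From cell 3 onward, Myh2 was the larger gene and Myh1 stayed between 6.43% and 18.5%.

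**Figure D1:**
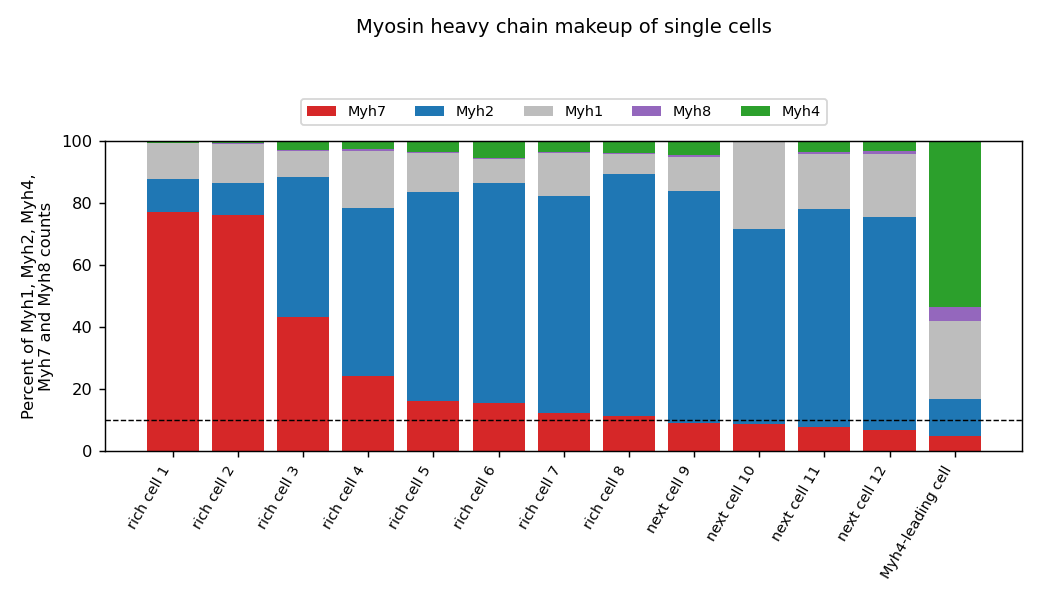
Percent that each gene makes up of the 5 heavy chains Myh1, Myh2, Myh4, Myh7, Myh8 (vertical axis) in the 8 Myh7-rich cells, the next 4 cells by Myh7 share and the cell led by Myh4 (horizontal axis), with a dashed line at the 10% limit. Myh7 falls from 77.3% in cell 1 to 11.2% in cell 8 while Myh2 takes the larger part from cell 3 onward, and Myh4 makes up 53.5% of the last cell.

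The Myh7-rich cells held 71.2% of all Myh7 counts and 71.8% of all Myh6 counts, but 9.74% of Myh7b, with 5.34% of the counts of all genes. Their Myh7 level ran from 1250 to 9093 CPM with a median of 2801 CPM. Of the other 163 cells the highest had 1546 CPM, the next 1009 CPM and the median 58.6 CPM. Because Myh7 defines these cells, its level in them is not a separate result.

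Myh6, the alpha or cardiac heavy chain, was high in the same cells. It ran from 183 to 1565 CPM in the 8 Myh7-rich cells with a median of 453 CPM. The highest of the other 163 cells was the cell led by Myh4, at 420 CPM, and the next had 148 CPM. So 1 other cell overlapped with the Myh7-rich cells, and the median of the others was 9.85 CPM. The highest levels were 1565 CPM in cell 3 (591 counts), 1529 CPM in cell 2 (732 counts), 835 CPM in cell 1 (84 counts) and 585 CPM in cell 5 (220 counts). Summed over the cells, Myh6 was at 699 CPM in the Myh7-rich cells and 17.4 CPM in the 45 Myh2-leading cells that were not Myh7-rich, a ratio of 40.2 (log2 ratio 5.33, limits 5.10 to 5.56). Myh2-leading means that Myh2 made up at least 50% of Myh1 and Myh2 together, and the others are called Myh1-leading.

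The number of Myh6 counts per Myh7 count was not fixed among the Myh7-rich cells. It was lowest in cell 4, at 0.0746 (exact limits 0.0536 to 0.101), and highest in cell 3, at 0.231 (limits 0.211 to 0.253). In cell 2 it was 0.190 (limits 0.176 to 0.206) and in cell 1, with nearly the same Myh7 share, 0.0918 (limits 0.0725 to 0.115). The intervals of cells 1 and 2 do not overlap, nor do those of cells 3 and 4, so each pair differed by more than counting error. Those of cells 1 and 4 do overlap. In the cell led by Myh4 the ratio was 1.66 (limits 1.21 to 2.30), with 108 counts of Myh6 and 65 of Myh7.

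**Figure D2:**
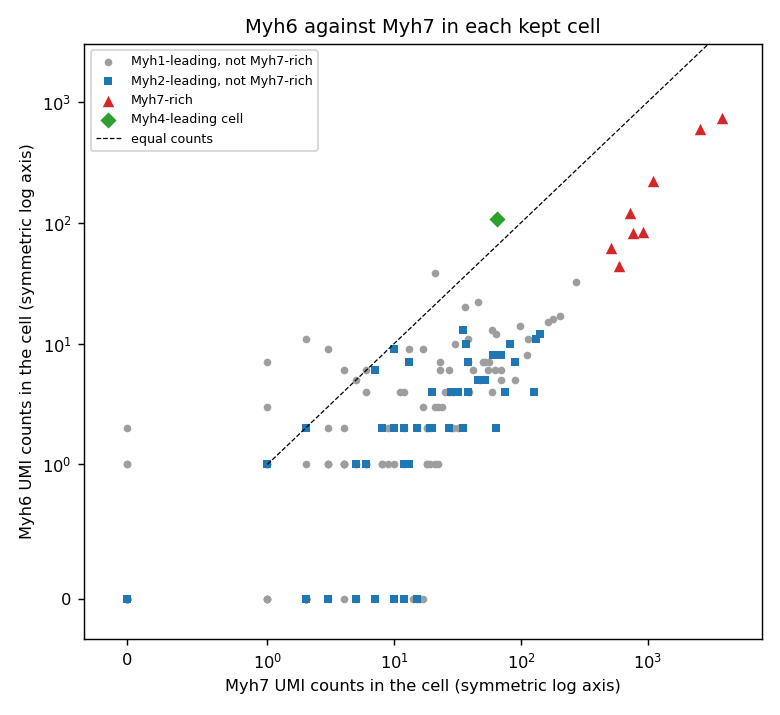
UMI counts of Myh6 (vertical axis) against those of Myh7 (horizontal axis) in each of the 171 kept cells, both on symmetric log axes, with a dashed line at equal counts. The Myh7-rich cells lie far out and below the line, with 44 to 732 Myh6 counts, and the cell led by Myh4 lies above it with 108 Myh6 and 65 Myh7 counts.

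Myh7b followed the Myh7-rich cells less closely than Myh6 did. It ran from 7.98 to 51.7 CPM in the 8 cells, with 2 to 19 counts each and a median of 32.3 CPM. The median was 8.32 CPM in the other 163 cells and 13.8 CPM in the Myh2-leading cells that were not Myh7-rich. Of the 8 cells, 6 lay above the median of the other 163, and 85 of those 163 lay above the lowest of the 8. Summed, Myh7b was at 28.2 CPM in the Myh7-rich cells and 15.4 CPM in the Myh2-leading cells that were not Myh7-rich (log2 ratio 0.87, limits 0.45 to 1.27). In cells 1 and 2, where Myh7 dominated, it had 49.7 and 37.6 CPM. The part of Myh7b that is spliced into a full coding transcript cannot be read from counts per gene.

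Mhrt is an antisense RNA of the Myh7 locus (chr14:54968678-54974349, plus strand), and 484 of its 1214 exon bases lie opposite Myh7 exons. It had 235 counts in the 171 cells, and 139 of them came from the Myh7-rich cells. Its level was 50.2 CPM in these cells, 1.65 CPM in the other Myh2-leading cells and 2.03 CPM in the other Myh1-leading cells. By cell it had 64 counts in cell 2, 31 in cell 3, 18 in cell 5, 2 to 11 in cells 1, 6, 7 and 8, and 0 in cell 4. The authors counted with default settings, and how these treat strand is not spelled out in the sources used here. Reads of Myh7 and Mhrt from the 484 overlapping bases may therefore not be told apart.

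To ask what else marks the Myh7-rich cells, their summed counts were set against the 45 Myh2-leading cells that were not Myh7-rich. These 45 are called the other Myh2-leading cells. Cells 1 and 2 of the Myh7-rich cells were themselves Myh1-leading, with Myh2 at 48.3% and 45.0% of Myh1 and Myh2. Of the 8746 genes with at least 500 counts, 1.13% were higher and 5.11% were lower by a fold of 2 or more, and the median log2 ratio of these genes was -0.14. Of the members, Myh7 was higher by construction and Myh6 was higher by more than 2-fold, while Myh7b fell short of it. Of 13 slow sarcomere genes, 8 were higher by that fold and 0 were lower, with a median log2 ratio of 1.21. Of 11 slow calcium and oxidative genes, 2 were higher and 0 lower, with a median of 0.29. Of 12 fast sarcomere and calcium genes none passed a fold of 2 either way, and their median was -0.42. With 1 mouse a fold of 2 is a size and not a test.

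Of the slow genes on the thin filament, Tpm3 differed most. This slow tropomyosin was at 2539 CPM in the Myh7-rich cells and 77.3 CPM in the other Myh2-leading cells (log2 ratio 5.04, limits 4.93 to 5.15). Of the 7035 Tpm3 counts in the Myh7-rich cells, 3405 came from cell 2 and 470 from cell 1, which were Myh1-leading. Each of the 8 cells, from 604 to 7111 CPM, lay above the highest of the 45 cells, 517 CPM. They did not all lie above the Myh1-leading cells that were not Myh7-rich. The highest of those had 787 CPM, above the 604 CPM of cell 8, and the cell led by Myh4 had 2404 CPM. The related row Tpm3-rs7 was 3.85 higher on the log2 scale, and reads of Tpm3 and this near copy may not be told apart. Tnnt1, slow troponin T, was at 6715 against 2140 CPM (log2 ratio 1.65), and 6 of the 8 cells were above the highest Myh2-leading cell. Tnnc1, the calcium-binding troponin C shared by slow fibers and heart, was at 5567 against 1624 CPM, and Tnni1, slow troponin I, at 3033 against 1469 CPM.

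The light chains that ride on the slow heavy chain were also higher. Myl3, the essential light chain of slow and ventricular muscle, was at 1519 CPM against 171 CPM (log2 ratio 3.15, limits 3.07 to 3.24). Myl2, the regulatory light chain, was at 3331 against 461 CPM (log2 ratio 2.85). In both genes 3 of the 8 cells exceeded the highest Myh2-leading cell, and all 8 exceeded the median one. Ankrd2, a stretch-responsive protein of the sarcomere, was at 1104 against 278 CPM, but in cell 7 it was at 120 CPM, below the median of the Myh2-leading cells. Myh3, the embryonic heavy chain, was at 197 against 49.2 CPM (log2 ratio 2.00).

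Calcium handling moved in the same direction for a few genes. Atp2a2, the slow and cardiac calcium pump SERCA2, was at 267 CPM against 28.1 CPM (log2 ratio 3.25, limits 3.05 to 3.46), and was highest in cells 1 and 2, at 845 and 789 CPM. Casq2, the slow and cardiac calsequestrin, was at 43.7 against 17.3 CPM. Pln, the inhibitor of this pump in heart and slow muscle, had 0 counts in the 8 cells. Sln, another small inhibitor of calcium pumps, was at 36.5 against 4.53 CPM, from 101 and 44 counts, which are below the minimum of 500 counts.

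Genes of oxidative metabolism differed less between the Myh7-rich and the other Myh2-leading cells. Mb, the oxygen carrier myoglobin, was at 1954 against 2153 CPM. Cd36, a fatty acid transporter, was at 62.8 against 63.4 CPM (log2 ratio -0.01, limits -0.26 to 0.23). Ldhb, Ckmt2 and Idh2 had log2 ratios between 0.23 and 0.24, and Fabp3, a fatty acid carrier, had the largest of this group at 0.66. The lactate dehydrogenase subunit of oxidative fibers, Ldhb, was at 404 against 342 CPM.

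Fast genes remained at substantial levels. Tnnt3, fast troponin T, was at 6870 CPM in the Myh7-rich cells and 11069 CPM in the other Myh2-leading cells (log2 ratio -0.69). Atp2a1, the fast calcium pump, was at 1218 against 2160 CPM, and Pvalb, the calcium buffer of fast fibers, at 1332 against 2244 CPM. Of the other heavy chains, Myh1 was at 1495 against 3403 CPM and Myh8 at 42.6 against 183 CPM, both lower by more than 2-fold, but these genes entered the share that chose the cells.

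Of 20 regulators with enough counts, 1 was higher and 0 were lower by a fold of 2, and the median log2 ratio was -0.05. This was Six4, at 40.4 against 16.5 CPM (log2 ratio 1.30, limits 0.93 to 1.65). Sox6, a repressor of slow genes, was at 183 against 167 CPM. Tead1, which binds the M-CAT motif, was at 801 against 688 CPM, and Mef2c at 1809 against 1797 CPM. Ppargc1a, a coactivator of mitochondrial genes, was at 106 against 73.7 CPM.

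The high Myh6 raised the question of heart-like transcripts. In the Myh7-rich cells the cardiac markers Nppb, Myl7 and Mybpc3 had 0 counts, Nppa had 1, Tnni3 had 3 and Actc1 had 19. Among the other Myh2-leading cells Nppb and Myl7 also had 0 counts, and Mybpc3 had 9. Actc1 was at 6.86 against 8.95 CPM there, and Tnni3 at 1.08 against 1.65 CPM. Of the cardiac regulators, Nkx2-5 had 0 counts in both groups. Gata4 was at 6.86 against 7.72 CPM, Gata6 at 3.61 against 1.85 CPM and Tbx5 at 1.44 against 1.34 CPM. The other genes of the cardiac list had more counts. Tnnt2, cardiac troponin T, was at 94.6 against 79.5 CPM in the other Myh2-leading cells (262 counts, log2 ratio 0.25, limits 0.04 to 0.46), Myl4, the atrial light chain, at 20.9 against 14.9 CPM (58 counts, log2 ratio 0.49, limits 0.02 to 0.94) and Ryr2, the cardiac calcium release channel, at 61.0 against 73.1 CPM (169 counts, log2 ratio -0.26, limits -0.51 to -0.02). None of these reached a fold of 2, and the summed list ran from 112 to 297 CPM in the Myh7-rich cells and from 50.4 to 480 CPM in the others. The summed endothelial markers ran from 5.32 to 54.3 CPM in the Myh7-rich cells and from 0 to 425 CPM in the other Myh2-leading cells. The fibroblast markers ran from 0 to 129 CPM and from 0 to 1145 CPM, and the satellite cell markers from 2.65 to 179 CPM and from 0 to 73.9 CPM. The smooth muscle markers ran from 2.09 to 33.0 CPM and from 0 to 66.5 CPM, the leukocyte marker Ptprc from 0 to 99.4 CPM and from 0 to 64.5 CPM, and the markers of intrafusal fibers of muscle spindles from 13.3 to 59.6 CPM and from 7.61 to 85.7 CPM. The 8 cells had a median of 376796 counts and 8.13% mitochondrial counts, compared with 183068 counts and 6.86% in the other Myh2-leading cells, and the part of depth in the ratios was not tested.

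The step from fast to slow was uneven across the paired slow and fast forms of a protein. Of Tnnt1 and Tnnt3 together, Tnnt1 made up 39.7% to 74.6% in the Myh7-rich cells, 4.25% to 34.4% in the other Myh2-leading cells and 0% to 13.7% in the Myh1-leading cells, leaving out the cell led by Myh4. The Myh7-rich and other Myh2-leading cells did not overlap in this share. In the Tpm3 and Tpm1 pair the Myh7-rich cells ran from 4.92% in cell 8 to 47.3% in cell 2, with 3 of 8 above the highest Myh2-leading cell. The Atp2a2 share of both calcium pumps was 58.6% in cell 1 and 42.6% in cell 2, but 3.44% in cell 7 and 4.45% in cell 8. Conversely, the Tnnc1 share was already high in Myh2-leading cells, with a median of 68.1%, and the Actn2 share had a median of 76.0% there and 81.0% in the Myh7-rich cells. Among the Myh7-rich cells, cells 1 and 2 had the largest slow shares in 9 of the 10 pairs, the exception being Actn2 and Actn3.

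**Figure D3:**
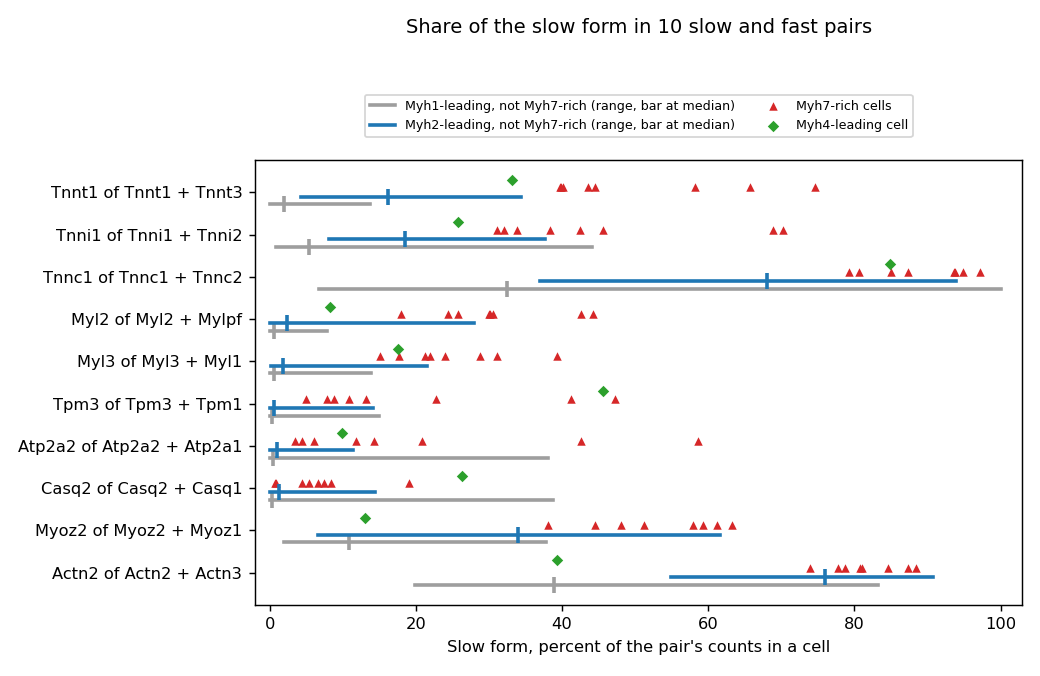
Percent of the counts of a slow and fast pair that came from the slow form (horizontal axis) for 10 pairs (vertical axis). Lines give the range over cells with a bar at the median for Myh1-leading and Myh2-leading cells, red triangles the 8 Myh7-rich cells and the green diamond the cell led by Myh4. The Tnnt1 share of the Myh7-rich cells, 39.7% to 74.6%, lies wholly above the Myh2-leading range, while the Actn2 share overlaps with it.

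The relation of the slow-type myosins to Myh2 was then examined over all 171 cells, as 2A fibers are often placed next to slow fibers. There were 51 Myh2-leading cells, of which 6 were Myh7-rich, and 120 Myh1-leading cells, of which 2 were Myh7-rich. Those 2 were cells 1 and 2, with Myh2 at 48.3% and 45.0% of Myh1 and Myh2. Myh7 was at 647 CPM in the Myh2-leading cells and 194 CPM in the Myh1-leading cells (log2 ratio 1.74, limits 1.69 to 1.78). Myh6 was at 108 against 35.2 CPM (log2 ratio 1.62, limits 1.51 to 1.73), and Myh7b at 17.2 against 14.9 CPM (log2 ratio 0.21, limits -0.03 to 0.44). Of 8746 genes, 0.732% were higher and 1.89% were lower by a fold of 2 or more, and of the 3 members Myh7 and Myh6 were higher by that fold. For comparison, 8 of 13 slow sarcomere genes and 5 of 11 slow calcium and oxidative genes were higher by that fold, and 3 of 12 fast genes were lower.

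Most of this difference rested on few cells. Without the Myh7-rich cells the Myh7 ratio was 0.97 on the log2 scale (149 against 76.2 CPM, limits 0.88 to 1.06). The Myh6 ratio became 0.21 (17.4 against 15.0 CPM, limits -0.04 to 0.46), an interval that holds 0. The Myh7b ratio became 0.09 (15.4 against 14.5 CPM, limits -0.18 to 0.35), and 0.78 when the cell led by Myh4, which falls among the Myh1-leading cells, was left out too. By steps of the Myh2 share without the Myh7-rich cells, the median Myh7 level was 44 CPM in the 48 cells below 20%, 55.7 CPM in the 60 cells from 20% to 40%, 74.9 CPM in 16 cells, 79.5 CPM in 28 cells and 133 CPM in the 11 cells from 80%. For Myh7b the medians were 3.87, 8.41, 9.37, 13.1 and 26.3 CPM over the same steps. The single cells of neighbouring steps overlapped widely, and the steps of 16 and 11 cells are thinly filled. Within sets of library indices the Myh7 medians did not rise at each step. On the 5 indices with a Myh7-rich cell the Myh7 medians by step were 104, 152, 181, 122 and 133 CPM, and on the other 3 indices 8.16, 3.61, 6.34, 16.3 and 210 CPM, the last from 4 cells. The Myh7b medians were higher at each step in both sets, at 5.32, 9.89, 11.3, 11.9 and 26.3 CPM and at 3.20, 3.33, 6.03, 16.7 and 26.0 CPM. Over all cells, Spearman's rho of the Myh2 share was 0.34 with Myh7, 0.28 with Myh6 and 0.28 with Myh7b.

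The low level of Myh7 outside the Myh7-rich cells went with the library index. Among Myh1-leading cells that were neither Myh7-rich nor led by Myh4, the median Myh7 level was 206 CPM on index n707 and 220 CPM on n711, each of which also carried 2 Myh7-rich cells. It was 71.5 CPM on n708, 76.6 CPM on n705 and 52.7 CPM on n709, which carried 2, 1 and 1. On n706, n710 and n712, which carried none, it was 13.1, 3.39 and 4.73 CPM. The 30 cells on n707 and n711 all had at least 128 CPM, and the 53 cells on n706, n710 and n712 had at most 45.9 CPM, so these sets did not overlap. In the cells that failed the filters, summed Myh7 was 222 CPM on n707 and 212 CPM on n711, compared with 13.2, 39.0 and 3.90 CPM on n706, n710 and n712.

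Summed over the 64 Myh1-leading cells on the 5 indices with a Myh7-rich cell, Myh7 was at 126 CPM, and over the 53 on the other 3 indices at 8.21 CPM. Of the genes high in Myh7-rich cells, 5 others were picked, set side by side and also differed between these sets. The share of all genes that differed between the sets was not computed, so these 5 cannot be set against it. These were Myh6 with 18.3 against 4.58 CPM, Tpm3 with 82.9 against 22.1 CPM, Myl2 with 171 against 29.3 CPM, Myl3 with 78.7 against 14.8 CPM and Tnnt1 with 350 against 130 CPM. Myh7b differed less, with 10.1 against 7.63 CPM, and in the second set it was thus above Myh6. On index n710 Myh7 was the lowest of the 3 in these cells, with 23 counts beside 24 of Myh6 and 48 of Myh7b, while on n706 and n712 Myh7 was the highest, with 63 and 54 counts. The sets had median depths of 247720 and 258315 counts per cell. In the Myh2-leading cells that were not Myh7-rich, the 5 genes differed less in sum between the same indices. Tnnt1 was at 2285 against 1780 CPM, Myl2 at 498 against 369 CPM and Myl3 at 181 against 146 CPM. Tpm3 was at 95.4 against 32.3 CPM and Myh6 at 20.2 against 10.4 CPM. The sums hid wider gaps between the median cells for 4 of the 5 genes. The medians were 323 against 122 CPM for Myl2, 111 against 66.1 for Myl3, 88.7 against 22.5 for Tpm3 and 16.2 against 6.28 for Myh6. For Tnnt1 they were 2138 against 2030 CPM. On the 3 indices, 331 of the 1027 Myl2 counts in these cells came from the cell just outside the 10% limit. Of 96 well barcodes, 93 occurred under all 8 indices. The part of the library index itself in these low levels was not tested.

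**Figure D4:**
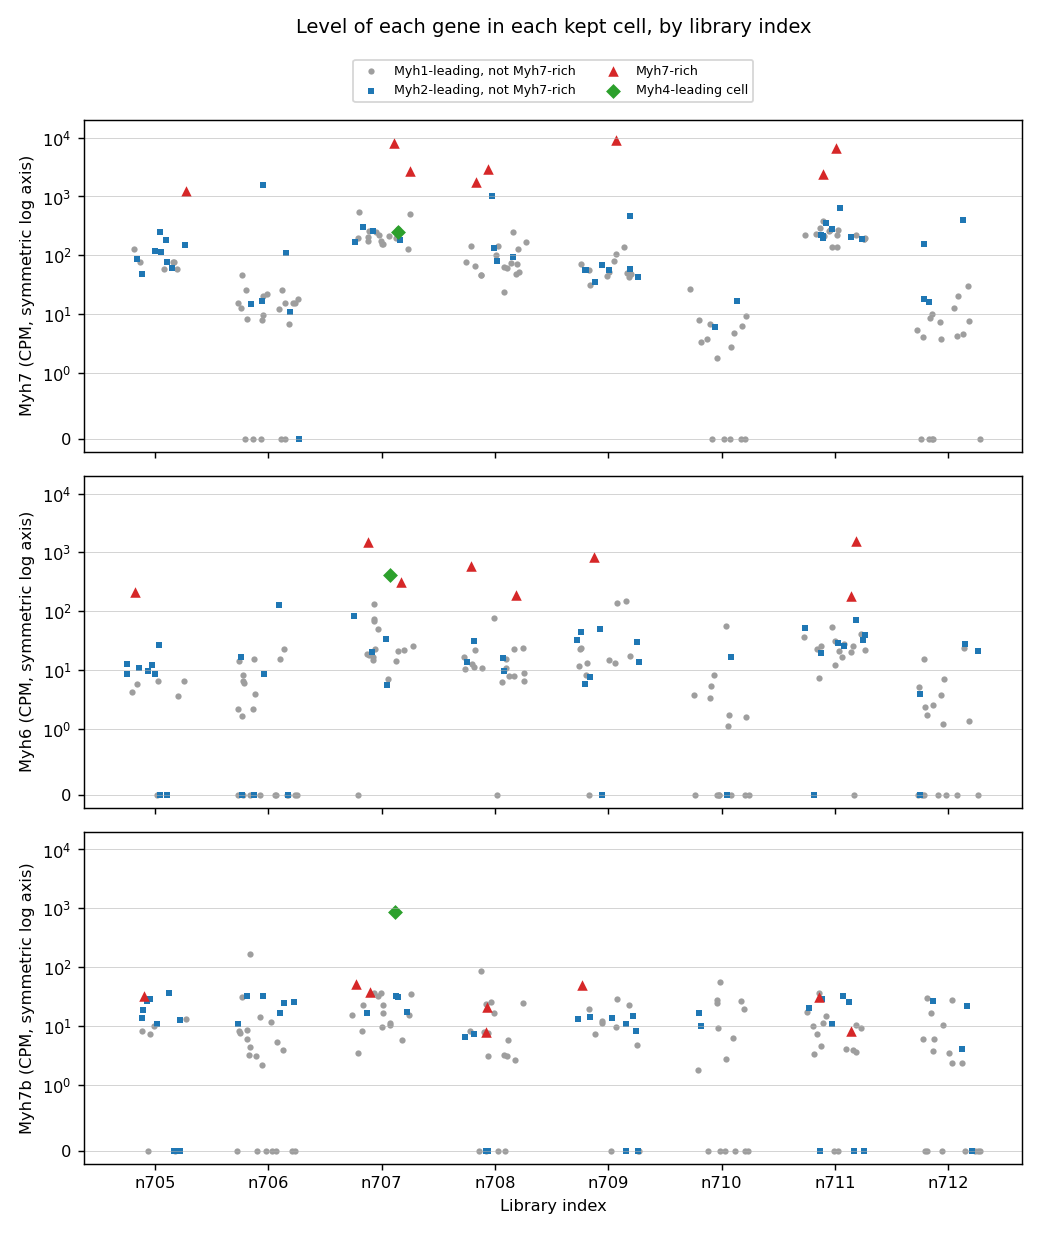
Level of Myh7, Myh6 and Myh7b in CPM on a symmetric log axis (vertical axes) in each of the 171 kept cells by library index (horizontal axis), with symbols for Myh1-leading, Myh2-leading and Myh7-rich cells and the cell led by Myh4. Outside the Myh7-rich cells, Myh7 sits near 200 CPM on n707 and n711 and mostly below 50 CPM on n706, n710 and n712, and Myh7b has its highest value, 856 CPM, in the cell led by Myh4.

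On the 3 indices without a Myh7-rich cell, Myh2-leading cells still had more Myh7 than Myh1-leading cells, with medians of 16.7 CPM in 12 cells and 6.82 CPM in 53 cells. The highest of the 12 had 1546 CPM (142 of the 294 Myh7 counts in these cells) and is the cell just outside the 10% limit. On the 5 indices with Myh7-rich cells the medians were 151 CPM in 33 Myh2-leading cells and 139 CPM in 64 Myh1-leading cells. The rho of Myh7 with the Myh2 share within a single index ran from 0.04 to 0.39, with a median of 0.15 over the 8 indices.

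The genes whose levels were most like Myh7 over the 171 cells were mostly slow sarcomere genes. Of 8746 genes, Myl3 had the highest Spearman's rho with Myh7, at 0.85, followed by Myl2 (0.83), Tpm3 (0.74), Myh6 (0.72), Tnnt1 (0.69), Tnnc1 (0.66), Selp (0.51), Tnni1 (0.48), Ankrd2 (0.47) and Myh3 (0.46). The middle 95% of all genes lay between -0.24 and 0.21. Leaving out the Myh7-rich cells changed Myh3 (to 0.38), Tnni1 (to 0.40) and Ankrd2 (to 0.41) most. The other values moved less, for instance to 0.82 for Myl3 and 0.68 for Myh6. Within an index the rho values were lower. Their median over the 8 indices was 0.30 for Myl3, 0.52 for Myl2, 0.17 for Tpm3 and 0.46 for Myh6. For such medians the upper end of the middle 95% of all genes was 0.19, and Tpm3 lay below it. Within single indices the rho of Tpm3 ran from -0.40 to 0.72. These cells share 1 mouse, the library indices and the range of depths, and the values are a description.

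**Figure D5:**
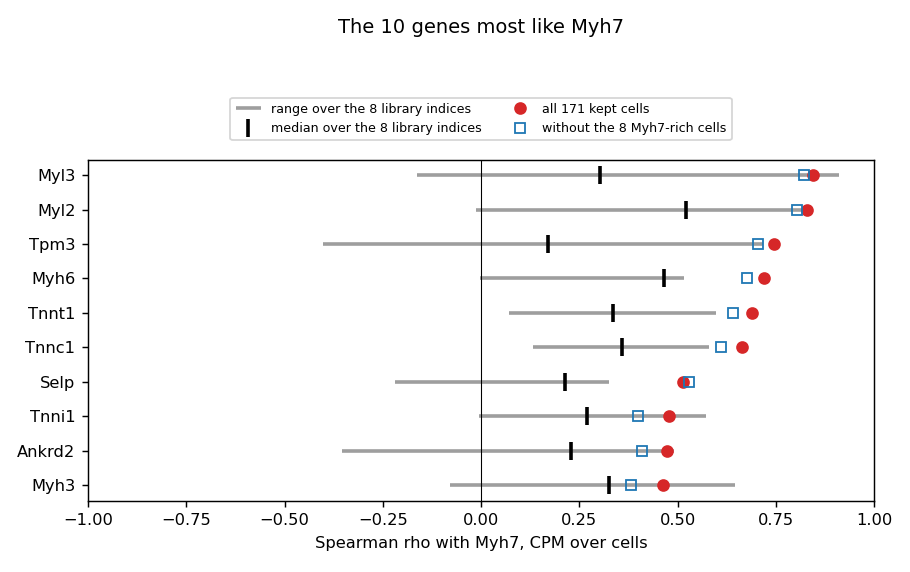
Spearman's rho with Myh7 (horizontal axis) for the 10 most similar genes (vertical axis) over all 171 cells (red), over the 163 cells without the Myh7-rich ones (blue squares) and within each of the 8 library indices (grey range, black bar at the median). Values over all cells lie between 0.46 and 0.85, and the medians within an index lie between 0.17 and 0.52.

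For Myh6 the most similar genes were Myh7 (0.72), Myl3 (0.60), Tpm3 (0.59), Myl2 (0.55) and Tnnt1 (0.50). For Myh7b all values were low, the highest being Ablim1 (0.39), Sbk3 (0.35) and Gcn1l1 (0.35), and then Tnnt1 (0.33). Its rho with Myh7 was 0.30 over all cells and had a median of 0.12 within an index. In counts this sparse such values are no more than a ranking.

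The highest Myh7b by far was in the 1 cell in which Myh4, the type 2B heavy chain, led. This cell was singled out after its values were seen. It was on index n707, had 257020 counts, and its heavy chains were 53.5% Myh4, 25% Myh1, 12.2% Myh2, 4.71% Myh8 and 4.64% Myh7. It held 220 of all 801 Myh7b counts, 856 CPM (exact Poisson limits 747 to 977), and the next highest cell had 169 CPM from 13 counts. Its Myh6 level of 420 CPM was the fifth highest of all cells, and its Myh7 level of 253 CPM was close to that of other cells on its index.

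A further heavy chain that is rare in limb muscle stood out in the cell led by Myh4. Myh13, the extraocular superfast heavy chain, had 647 counts, 2517 CPM (limits 2327 to 2719), and the highest of the other 170 cells had 126 CPM. Tpm3 was at 2404 CPM, which 3 of the Myh7-rich cells exceeded. The forms of the developing and cardiac sarcomere Actc1, Tnnt2 and Myl4 were at 292, 455 and 455 CPM, compared with summed levels of 6.97, 68.9 and 15.1 CPM in the others. Nppa, Nppb, Myl7 and Tnni3, markers of heart muscle, had 0 counts in it. Abundant fast sarcomere genes were low in this cell. Tnnt3 was at 3128 CPM, compared with a median of 11499 CPM in the others, Mylpf at 3023 against 12081 CPM and Tpm1 at 2875 against 12860 CPM. Actn3 was nearer to the others, at 1331 against 1794 CPM.

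Of 5 markers of the intrafusal fibers of muscle spindles, Egr3 had 35 counts (136 CPM, highest of the others 23.1 CPM) and Piezo2 27 counts (105 CPM, highest of the others 241 CPM). Etv4 had 7, Ntf3 2 and Calb1 2. The fibroblast marker Dcn had 386 counts (1502 CPM), and the summed fibroblast markers were 1727 CPM, compared with a median of 14.8 CPM and a maximum of 2056 CPM in the Myh1-leading cells. The 5 intrafusal markers summed to 284 CPM, and the highest Myh1-leading cell had 338 CPM. No doublet caller was run, and the part of other cells in this well was not tested. Without this cell, Myh7b fell from 15.4 to 11.2 CPM over all kept cells.

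The 592 cells that failed the filters, 502 whole myofibers and 90 fragments, had the same order of levels in sum, with Myh7 at 96.8 CPM (1509 counts), Myh6 at 23.6 CPM (368 counts) and Myh7b at 9.75 CPM (152 counts). In the fragments among them the levels were 90.4, 28.4 and 6.58 CPM, and in the whole myofibers 98.5, 22.3 and 10.6 CPM. On the 3 indices without a Myh7-rich cell, Myh7b was above Myh6 here too, at 7.47 and 3.38 CPM. The median depth of the 592 cells was 16032 counts, and Myh7 was found in 50.5% of them, Myh6 in 27.7% and Myh7b in 11.5%. Of the 207 such cells with at least 100 counts of the 5 heavy chains, 1 reached 10% Myh7. It had 37 of 148 counts from Myh7 (25%, limits 18.3 to 32.8), 46 counts of Tnnt1, 1 of Myh6 and 49.5% mitochondrial counts, and it was on index n710, which had no Myh7-rich cell among the kept ones.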

How the data were processed

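Whole and cut myofibers of the FDB of 1 mouse were sorted by large particle flow cytometry, and libraries were made by mcSCRB-seq and sequenced on 2 lanes. The authors mapped 66-base reads to GRCm38 plus spike-in sequences with zUMIs, which runs STAR 2.5.4b and featureCounts, and deposited raw UMI counts per gene and cell, with no other normalization. The deposited columns also hold 10 rows of annotation (index, lane, cell type, totals and percentages), of which index, lane, cell type and reads were read. The default settings were used, and how they treat strand and reads that map to several genes is not spelled out in the sources used here.

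Cells with more than 5000 genes and less than 20% mitochondrial counts were kept. Kept cells had 28827 to 1542996 counts (median 239581), so 1 count was worth most in the shallow cells. CPM are counts summed over a group per 1000000 counts of all genes in that group. CPM have exact Poisson limits, shares exact Clopper-Pearson limits and ratios exact conditional binomial limits (95%), computed with scipy 1.17.1. Genes with fewer than 500 summed counts entered no count over genes. Spearman's rho was taken on CPM over cells. Steps across genes were tested on simulated data. Genes named in the text are the members, the genes of the lists, the 10 genes with the highest rho, the 5 with the largest folds, the cells numbered by Myh7 share and the 10 cells highest in Myh6 or Myh7b. The members and lists were chosen with earlier results of these data known. Alternatives to the filter, totals, thinning and cells were tried. The second sample is the second lane of the same mouse and was used as a technical split. Of the marker lists that were summed, 1 is not reported here.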

Additional observations from a re-analysis of the deposited data

How the results depend on the processing

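With 1 mouse no setting gives a test, and values are judged against counting limits. The order Myh7, Myh6, Myh7b was the same when the level over all kept cells was recomputed, with an exception and a near tie. On the indices without a Myh7-rich cell Myh7b was above Myh6, and without the Myh7-rich cells these genes were close. For the levels of Myh7, Myh6 and Myh7b, the mean over cells gave 318, 50.6 and 18.4 CPM, counts without mitochondrial genes 317, 55.3 and 16.4 CPM, leaving out the cell with most counts of the gene 226, 38.2 and 11.2 CPM, and a wider filter that ignores the mitochondrial ribosomal RNAs (234 cells) 284, 49.9 and 16.2 CPM. Each lane alone gave 225 to 376 CPM for Myh7, 40.7 to 64.1 for Myh6 and 9.66 to 21.6 for Myh7b. Chosen after seeing the data, leaving out the Myh7-rich cells gave 90.6, 15.5 and 14.7 CPM, and the indices without such a cell 21.9, 5.4 and 9.18 CPM. Outside the Myh7-rich cells the limits of Myh6 and Myh7b overlapped in Myh2-leading cells, at 14.9 to 20.2 and 13.1 to 18.1 CPM. They also did in Myh1-leading cells, at 13.8 to 16.3 and 13.4 to 15.8 CPM. With the cell led by Myh4 left out of the latter they did not, at 11.3 to 13.5 and 8.09 to 10.0 CPM.

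The share of cells with a count fell to 70.8%, 29.8% and 29.8% on thinning, to 58.5% for both Myh6 and Myh7b at 2 counts or more, and to 70.1% and 68.8% for these genes with the wider filter. The number of Myh7-rich cells was 8 with Myh6, Myh7b and Myh3 added to the sum and with the wider filter.

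The log2 ratio of Myh2-leading over Myh1-leading cells kept its sign for Myh7 and Myh6 under all settings run. For Myh7, Myh6 and Myh7b it was 1.2, 1.04 and -0.23 by the mean over cells, 1.65, 1.04 and 1.10 by the median, 3.25, 2.99 and 0.25 without cells between 40% and 60% Myh2, 2.71, 2.66 and 0.86 without the cell with most counts of the gene, and 1.85, 1.74 and 0.32 with TMM factors. Without the Myh7-rich cells it was 0.97, 0.21 and 0.09. Each lane alone gave 0.94 to 2.83, 0.53 to 3.09 and -0.24 to 0.79. Added after seeing the data, the indices without a Myh7-rich cell gave 3.68, 1.19 and 1.29, and leaving out the Myh7-rich and Myh4-leading cells 0.99, 0.49 and 0.78. For Myh7b the sign turned by the mean over cells and on lane 1, the lane of the cell led by Myh4. The cause was not tested.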
